A study of Homo sapiens with 6 samples.

Results

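The 48 mRNAs described here encode the enzymes of glycolysis, of the pentose phosphate pathway and of the TCA cycle, together with the enzymes that feed and drain that cycle. They were read by gene symbol from a table of 40173 genes, and all 48 were found and passed the filter on low counts. The table came from RNA-Seq of total RNA from A549, a cell line grown from a human lung adenocarcinoma (LUAD). The cells received either an siRNA against FAM83H-AS1, a long noncoding RNA, or a negative control, and were harvested 24 h after transfection, with 3 libraries per group. These groups are called silenced and control below. The samples model 1 cell line in culture, and the sources used here do not state which of the designed siRNAs was sequenced. Nothing in the labels says that replicates came from separate cultures, so that p-values measure only the spread between these libraries, which may be technical.

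Glycolysis splits glucose into pyruvate in the cytosol and, with lactate dehydrogenase, regenerates the NAD+ it consumes. The pentose phosphate pathway draws on the same sugar phosphates for ribose and NADPH, and the TCA cycle oxidizes acetyl-CoA from pyruvate in the mitochondrial matrix while its intermediates are withdrawn for synthesis and refilled from pyruvate and glutamate. Many steps are shared by isoenzymes from separate genes, and several glycolytic genes are textbook targets of the hypoxia-inducible factors, which bind a short DNA element with the core ACGTG or GCGTG.

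The targeted RNA was lower in every silenced library. Control libraries held 141, 185 and 292 reads of FAM83H-AS1 and silenced libraries held 47, 48 and 75, a log2 fold change of -1.70 (SE 0.148, edgeR's quasi-likelihood test, adjusted p = 7.99e-05). Library totals lay between 9738291 and 17742643 counts. Control 3, the deepest, had 3.22% of its counts on the ribosomal pseudogene RNA5-8SP6 against 0.241% to 0.448% in the other libraries. Of 7 markers set for the labelled line, 4 were clearly read and 3 were low or absent. The epithelial keratins KRT8, KRT18 and KRT7 stood between 909 and 2081 CPM (counts scaled to a common library size) in every library and AKR1C1 between 71.7 and 129.9 CPM, while EPCAM had 2.83 to 4.49 CPM, AKR1B10, typically abundant in A549, had 9 to 28 counts and ALDH1A1 had 0 counts in 5 libraries and 2 in the other. CDKN2A, which A549 is known to have lost by deletion, was read at 48.2 to 74.8 CPM, and its neighbour MTAP at 32.6 to 39.2 CPM. These 2 genes were chosen after their values were seen, and the identity of the line was not tested. Of the markers of other cells, PTPRC, CD3E, PECAM1 and ALB had at most 2 counts in a library, SFTPC had 2 to 8 and COL1A1 had 25.7 to 37.3 CPM. KRT18 and KRT7 fell after silencing, by 0.43 and 0.57 on the log2 scale, AKR1B10 rose by 1.31, and their part in the results below was not tested.

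Most central carbon enzymes were not called. Those that were called in glycolysis were higher in the silenced libraries and those called in the TCA cycle, its entry and its refilling were lower, while IDH2, which stands beside the cycle, was higher. With an adjusted p under 0.05 over all 15250 tested genes, 10 of the 48 enzymes (20.8%) were called, beside 17% of all tested genes and 22.6% of the 8656 genes at or above the level of the lowest enzyme, RPIA, at 15.8 CPM over all libraries. HK1, HK2, ENO2 and IDH2 rose, which is 4 of 48 (8.33%) beside 8.75% of all tested genes. PDHB, CS, IDH3B, SUCLG1, FH and PC fell, which is 6 of 48 (12.5%) beside 8.27%. Several of these calls rest on single libraries. Without silenced 1, 4 of the 10 were kept, while CS, FH, HK1, IDH2, IDH3B and PDHB were lost. Of the TCA cycle, only SUCLG1 was then called. No called enzyme exceeded a 2-fold difference, while 2.14% of all tested genes were called and did. A lower CPM in a bulk sample cannot be told apart from fewer cells of a type that makes the RNA, nor from less RNA per cell.

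The share of enzymes whose control and silenced libraries did not overlap was 17 of 48 (35.4%), 7 of them higher and 10 lower, beside 36.6% of all tested genes and 43% of those at or above the level of the lowest enzyme. Fold changes were smaller than over all tested genes. That comparison is not matched for level, since only 8656 of the 15250 tested genes reach the level of the lowest enzyme. Whether level accounts for the difference was not tested. The median absolute log2 fold change was 0.137 for the 48 enzymes and 0.199 for all tested genes, and 11 enzymes (22.9%) had a fold past 1.2 in either direction against 38% of all tested genes. The median signed log2 fold change was -0.05 for the enzymes and 0.00 for all genes. Summed over the 48 enzymes, the level was 24206 to 24845 CPM in control and 23034 to 24334 CPM in silenced libraries, between 2.35% and 2.48% of all counts in each library.

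**Figure D1:**
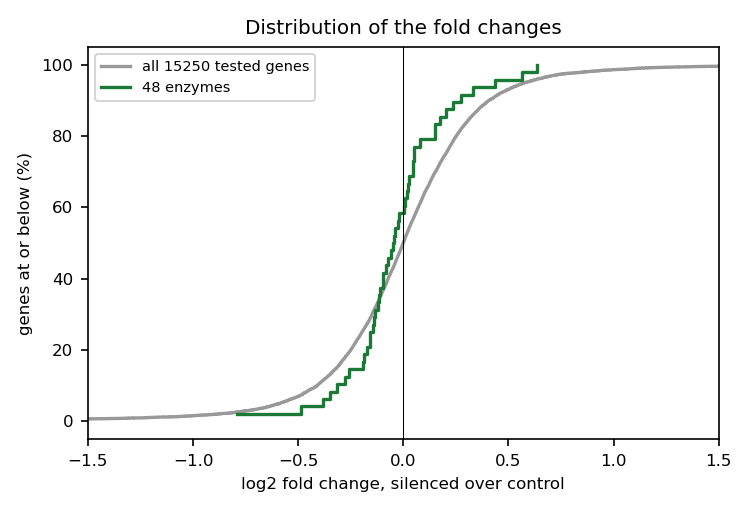
Cumulative distribution of the log2 fold change, silenced over control, on the horizontal axis and the percentage of genes at or below it on the vertical axis, for all 15250 tested genes in grey and the 48 enzymes in green. The green line is steeper around 0, with a median absolute log2 fold change of 0.137 against 0.199 for all genes.

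**Figure D2:**
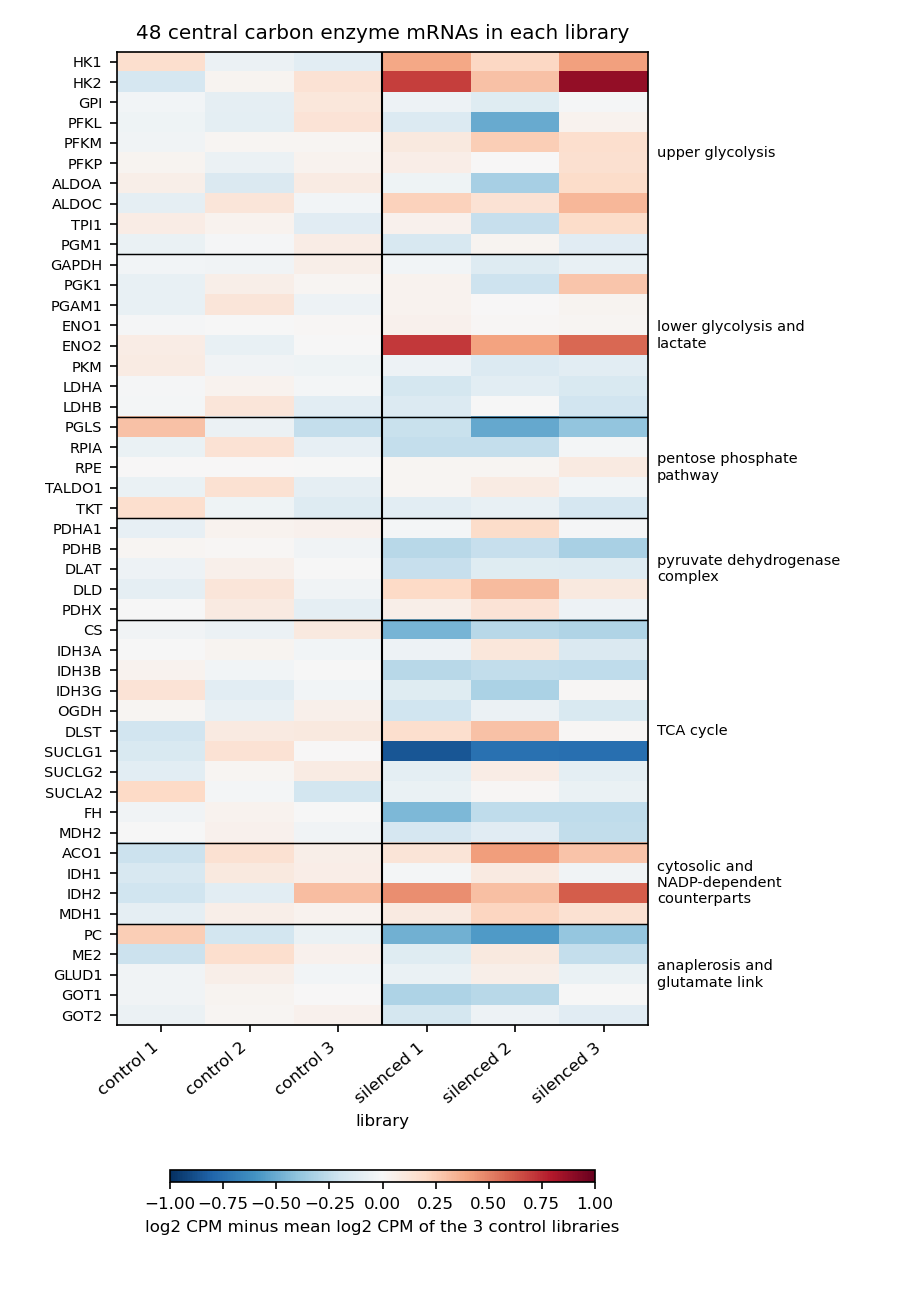
Level of each of the 48 enzyme mRNAs in each of the 6 libraries, as log2 CPM minus the mean log2 CPM of the 3 control libraries, with enzymes in rows grouped by role. SUCLG1 is the darkest blue in the 3 silenced libraries. Within the column of silenced 1, HK2 and ENO2 are the darkest red, and HK2 is darker still in silenced 3. Both are paler in silenced 2 than in silenced 1 and 3.

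The first steps of glycolysis held both hexokinases that rose. Hexokinases trap glucose in the cell by phosphorylating it. HK2, the isoenzyme bound to mitochondria in many tumours, had 54.6, 62.4 and 67.6 CPM in control and 99.2, 75.3 and 112.8 CPM in silenced libraries. All silenced libraries were above all controls, silenced 2 being the nearest to them. The mean rose from 61.6 ± 6.57 to 95.7 ± 19.0 CPM (SD, n = 3 per group), 1.55-fold, with a 95% interval of the log2 fold change from 0.34 to 0.93 and an adjusted p of 0.00994. HK1, the widely expressed isoenzyme, had 424, 361 and 350 CPM in control and 494, 434 and 500 CPM in silenced libraries. The groups did not overlap, but silenced 2 lay close to control 1. Its log2 fold change was 0.33 (SE 0.0889, adjusted p = 0.0277), and the call was lost without control 2, control 3, silenced 1 or silenced 3, with adjusted p up to 0.107 over all settings tried.

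The next step of glycolysis with a called enzyme was enolase, which makes phosphoenolpyruvate. ENO2, the enolase named for neurons, had 81.2, 73.2 and 76.9 CPM in control and 125.8, 102 and 114.8 CPM in silenced libraries. The groups were well apart, since the lowest silenced library was above the highest control by more than the SD of either group. ENO2 rose from 77.1 ± 3.99 to 114 ± 11.9 CPM (SD, n = 3 per group), a log2 fold change of 0.57 with a 95% interval from 0.37 to 0.76 and an adjusted p of 0.00236. Its relative ENO1, the main enolase of most cells, had a log2 fold change of 0.02 with an interval from -0.12 to 0.17. The call of ENO2, like that of HK2, was kept under every setting and without any single library.

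The stretch of 250 bases upstream of the RefSeq start is shown for the 3 enzymes with the smallest p, to let the hypoxia core be seen beside the values. Capitals mark ACGTG or GCGTG on either strand, so that CACGT and CACGC are the same words on the opposite strand. The windows are given 5′ to 3′ on the strand of the gene and on GRCh38.p14, at chr2:74833877-74834126 on the plus strand for HK2, chr12:6914330-6914579 on the plus strand for ENO2 and chr2:84459281-84459530 on the minus strand for SUCLG1, a mitochondrial enzyme described below. HK2 has 2 RefSeq starts, and the upstream one is shown. The window of the other start, at chr2:74834920-74835169, holds 4 matches to ACGTG and 2 to GCGTG, both strands counted, against 2 and 1 in the window shown. The 4 matches lie in CACGTG, which reads alike on both strands, so that each such site is counted on both. They are therefore no more separate sites than the 2 in the window shown.
HK2: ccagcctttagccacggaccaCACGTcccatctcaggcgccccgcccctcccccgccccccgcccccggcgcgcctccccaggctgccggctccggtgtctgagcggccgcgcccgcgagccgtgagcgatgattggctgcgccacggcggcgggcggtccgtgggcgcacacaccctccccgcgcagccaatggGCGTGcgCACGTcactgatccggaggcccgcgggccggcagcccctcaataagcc
ENO2: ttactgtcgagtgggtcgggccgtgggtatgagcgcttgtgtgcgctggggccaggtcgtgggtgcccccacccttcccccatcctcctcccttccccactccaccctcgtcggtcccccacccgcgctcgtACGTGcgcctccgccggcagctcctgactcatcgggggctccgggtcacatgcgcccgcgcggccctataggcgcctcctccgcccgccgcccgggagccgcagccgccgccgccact
SUCLG1: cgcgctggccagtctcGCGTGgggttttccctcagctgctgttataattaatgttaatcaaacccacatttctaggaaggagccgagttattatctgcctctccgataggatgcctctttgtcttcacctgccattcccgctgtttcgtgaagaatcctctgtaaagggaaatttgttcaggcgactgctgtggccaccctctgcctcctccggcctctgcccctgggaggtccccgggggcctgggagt
All 3 windows hold the core, and SUCLG1 fell where HK2 and ENO2 rose. Of all 35116 promoter windows of this length in the RefSeq table, 15172 (43.2%) hold ACGTG or GCGTG. Of the 75 windows of the enzymes, which cover 47 of the 48, 40 (53.3%) do. The core was in 5 of the 11 windows of the 4 enzymes that rose (45.5%) and in 5 of the 8 windows of the 6 that fell (62.5%). These are shares of windows and not of genes, since most windows of the risers belong to HK1, and some of those overlap. By gene, HK1, HK2, ENO2 and IDH2 each have a window with the core. So does each enzyme that fell except CS. A match is a description of these letters and not of binding.

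The remaining enzymes of upper glycolysis did not pass the test. The 3 subunit genes of phosphofructokinase, the committed step, had log2 fold changes of either sign. PFKM had 319 to 330 CPM in control and 348 to 387 CPM in silenced libraries, without overlap, but a log2 fold change of 0.17 with an adjusted p of 0.105. PFKP, the platelet form and the most abundant of them per kilobase, had 643, 607 and 647 CPM in control and 662, 635 and 706 CPM in silenced libraries, which overlap, with a log2 fold change of 0.08 and an interval from -0.07 to 0.23. PFKL, the liver form, had a log2 fold change of -0.19 with an interval from -0.46 to 0.08. ALDOC, an aldolase, had a log2 fold change of 0.24 and an adjusted p of 0.0748, again with the groups apart. GPI, ALDOA, TPI1 and PGM1 had log2 fold changes between -0.08 and 0.01, and their groups overlapped.

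Lower glycolysis and lactate formation, apart from ENO2, did not pass the test either. PKM, the pyruvate kinase of most tumours, had 3124, 2887 and 2868 CPM in control and 2858, 2695 and 2745 CPM in silenced libraries. All silenced libraries were lower, silenced 1 only just below control 3, and the log2 fold change was -0.10 with an interval from -0.25 to 0.06. LDHA, which reduces pyruvate to lactate, had 1103, 1143 and 1097 CPM in control and 985, 1036 and 1003 CPM in silenced libraries. Here too every silenced library was below every control, by a log2 fold change of -0.14 with an adjusted p of 0.145. LDHB, which favours the reverse reaction, had 468, 514 and 441 CPM in control and 429, 471 and 414 CPM in silenced libraries, overlapping, with a log2 fold change of -0.11 and an adjusted p of 0.357. GAPDH, which also served the study as an internal control for PCR, had a log2 fold change of -0.07 with an interval from -0.23 to 0.08, and PGK1 and PGAM1 had 0.05 and 0.02. A p that misses the threshold does not show that any of these levels are alike.

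Glycolytic mRNAs varied among the silenced libraries. Of the 18 enzymes of glycolysis and lactate formation, 14 had their lowest silenced value in silenced 2, compared with 5 of the other 30 enzymes and 5816 of all 15250 tested genes. The other 30 enzymes leaned the opposite way in this library. Their highest silenced value was in silenced 2 for 22 of them, compared with 4 of the 18 and 5805 of all tested genes. ALDOA had 1609 CPM in silenced 2, below all controls at 1834 to 2141 CPM, but 2300 CPM in silenced 3, above all of them. PGK1 and TPI1 showed the same order, with 767 and 436 CPM in silenced 2 and 1072 and 580 CPM in silenced 3. A fixed list of 10 hypoxia-responsive genes that encode no central carbon enzyme had its lowest silenced value in silenced 2 for all 10 genes. Its summed level was 761 to 839 CPM in control and 1178.5, 654 and 1138 CPM in silenced 1, 2 and 3. NDRG1, which was not called, weighs most in this sum. It had 392, 375 and 341 CPM in control and 554, 220 and 514 CPM in silenced libraries. In silenced 2, 4 of the 10 genes were below all controls, beside 5353 of all 15250 tested genes. CA9, a carbonic anhydrase of the cell surface, and ADM, the peptide adrenomedullin, rose by 1.87 and 0.64 (adjusted p = 0.00262 and 0.0165), and both were lowest of the silenced group in silenced 2, at 16.7 and 76.6 CPM. These were the 2 of the 10 genes that passed the test, beside 17% of all tested genes in either direction and 8.75% higher. With so few genes the share says little. The median log2 fold change of the list was 0.43. KDM3A, a histone demethylase, and BNIP3, a mitophagy receptor, had log2 fold changes of 0.41 and 0.49 (adjusted p = 0.052 and 0.059). VEGFA, P4HA1 and NDRG1 had -0.02, -0.04 and 0.22, all with overlapping groups, and ANKRD37, EGLN3 and ANGPTL4 had 0.64, 0.35 and 0.46 and were not called. The call of ADM was lost without control 1, silenced 1 or silenced 3, with adjusted p up to 0.071. Without silenced 2, the log2 fold changes were 0.78 for HK2, 0.64 for ENO2 and 0.39 for HK1, and those of ALDOA, TPI1 and PGK1 were 0.07, 0.11 and 0.16 with adjusted p of 0.68, 0.41 and 0.26. What sets silenced 2 apart was not tested.

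**Figure D3:**
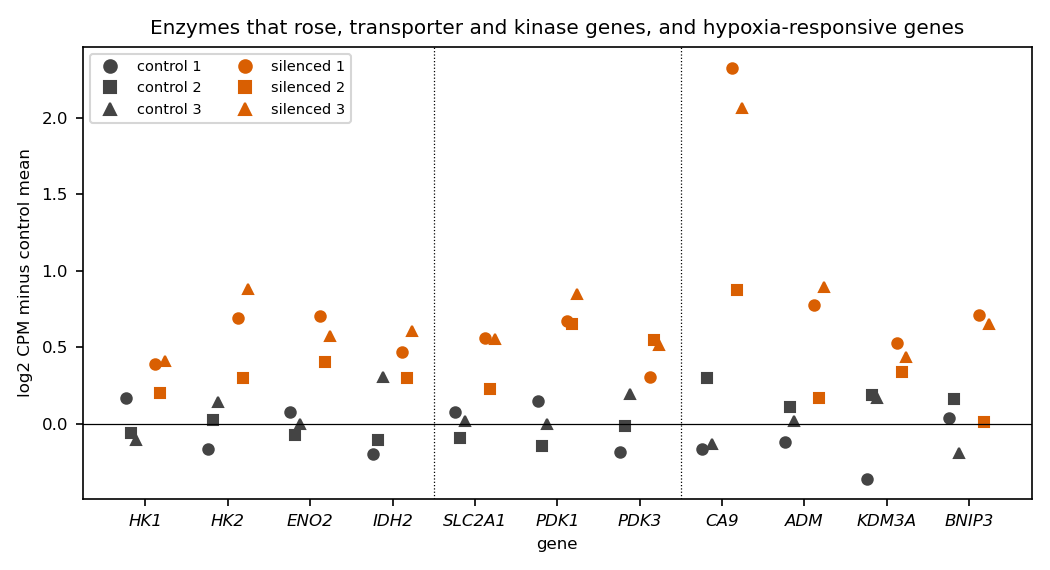
Log2 CPM minus the mean log2 CPM of the control libraries, on the vertical axis, for the enzymes that rose, called transporter and kinase genes and 4 hypoxia-responsive genes, on the horizontal axis, with grey points for control and orange points for silenced libraries and a shape for each replicate number. The orange square, silenced 2, is the lowest of its group for each gene but PDK3, which has silenced 1 lowest.

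The pentose phosphate enzymes had no called member. TKT, transketolase, had 1935, 1672 and 1576 CPM in control and 1598, 1636 and 1536 CPM in silenced libraries. The groups overlapped, control 1 was the highest, and the log2 fold change was -0.12 with an interval from -0.30 to 0.06. PGLS, a lactonase of the oxidative branch, had the most negative log2 fold change of this group, at -0.38 (adjusted p = 0.0638), and was called without control 3, with DESeq2, with all genes of at least 1 count and with the replicate number as a block. RPIA, RPE and TALDO1 had -0.16, 0.04 and 0.02. The other enzymes of the oxidative branch are not among the 48. Of these, PGD, a dehydrogenase that yields NADPH, fell by 0.24 (adjusted p = 0.0318). PGD had 312 to 336 CPM in control and 263 to 284 CPM in silenced libraries. Its call was kept under 7 of 13 alternatives. The losses included those without control 1, control 2, silenced 1 or silenced 3. H6PD, an enzyme of the endoplasmic reticulum, had a log2 fold change of 0.11 and overlapping groups.

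Of the 5 genes of the pyruvate dehydrogenase complex, which turns pyruvate into acetyl-CoA, 1 fell. PDHB, the beta subunit of its first enzyme, had 86.2, 85.4 and 83.0 CPM in control and 69.9, 72.1 and 67.6 CPM in silenced libraries, a log2 fold change of -0.28 (SE 0.071, adjusted p = 0.0219). The libraries of each group were close together and far from the other group. Its partner PDHA1, the alpha subunit, had 241, 261 and 262 CPM in control and 251, 289 and 253 CPM in silenced libraries, with overlap and a log2 fold change of 0.05. DLAT had -0.16, DLD had 0.20 and PDHX had 0.05, none with an adjusted p under 0.05. Among the kinases that inhibit the complex, PDK1 had 16.4, 13.4 and 14.8 CPM in control and 23.6, 23.3 and 26.7 CPM in silenced libraries. PDK1 rose by 0.73 on the log2 scale (adjusted p = 0.00211), with silenced 1 and 2 nearly level. PDK3 rose by 0.44 (adjusted p = 0.0326, lost without control 1, control 2, silenced 2 or silenced 3), and PDK2 and PDK4 had 0.14 and 0.28 with adjusted p of 0.237 and 0.148.

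The TCA cycle held 4 of the 6 enzymes that fell, and 10 of its 11 members had a negative log2 fold change, with a median of -0.14. Of all tested genes, 8.27% fell, 49.9% had a positive log2 fold change and the median was 0.00. The summed level of the 11 members was 1901 to 1943 CPM in control and 1648 to 1767 CPM in silenced libraries, without overlap. OGDH and MDH2, which were not called, weigh most in this sum. Their means were 561 and 465 CPM in control and 510 and 412 CPM in silenced libraries. SUCLG1, the alpha subunit of succinyl-CoA synthetase, fell the most of the 48 enzymes. It had 53.4, 65.3 and 59.5 CPM in control and 32.7, 35.2 and 35.1 CPM in silenced libraries, from 59.4 ± 5.97 to 34.3 ± 1.42 CPM (SD, n = 3 per group). The silenced libraries were close together and far below the lowest control. SUCLG1 fell by 0.79 on the log2 scale, with an interval from -0.99 to -0.59 and an adjusted p of 4.06e-04. The subunits that pair with it, SUCLG2 for the GTP-forming and SUCLA2 for the ATP-forming enzyme, had log2 fold changes of -0.04 for each, with intervals from -0.23 to 0.14 and from -0.27 to 0.18.

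The other TCA enzymes that fell changed by less. CS, citrate synthase, which opens the cycle, had 219.7, 215.5 and 239.9 CPM in control and 162.6, 185.3 and 182.3 CPM in silenced libraries. All silenced libraries were lower, and CS fell by 0.35 on the log2 scale (adjusted p = 0.0124). FH, fumarase, had 142.8, 149.9 and 146.2 CPM in control and 107, 122.6 and 122.8 CPM in silenced libraries, and fell by 0.32 (adjusted p = 0.0183). IDH3B, a regulatory subunit of the NAD-dependent isocitrate dehydrogenase, had 70.4, 67.5 and 68.7 CPM in control and 56.9, 58.0 and 57.8 CPM in silenced libraries, and fell by 0.26 (adjusted p = 0.0289). Its groups were narrow and apart, whereas the partner subunits IDH3A and IDH3G had -0.02 and -0.14 with overlapping groups. MDH2, the mitochondrial malate dehydrogenase, had groups apart, a log2 fold change of -0.17 and an adjusted p of 0.0981, and OGDH and DLST had -0.14 and 0.15. The calls of FH and CS were lost without silenced 1, that of FH also without control 2, that of IDH3B without any 1 of the 6 libraries, and that of PDHB without control 1, control 2, silenced 1 or silenced 3.

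The 4 cytosolic or NADP-dependent counterparts of TCA enzymes had log2 fold changes above 0 in each case, with a median of 0.21. IDH2, the mitochondrial NADP-dependent isocitrate dehydrogenase, had 22.4, 23.9 and 31.9 CPM in control and 35.6, 31.7 and 39.2 CPM in silenced libraries. Control 3 was just above silenced 2, so that the groups overlapped, and the log2 fold change of 0.44 passed narrowly (SE 0.135, adjusted p = 0.047). The call was lost without control 1, control 2, silenced 1 or silenced 3. IDH1, its cytosolic relative, had 63.8, 76.4 and 74.7 CPM in control and 70.5, 75.8 and 69.8 CPM in silenced libraries, with a log2 fold change of 0.01 and an interval from -0.18 to 0.20 whose direction differed between settings. MDH1 and ACO1 had 0.15 and 0.27 with adjusted p of 0.172 and 0.103.

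Of the enzymes that refill the cycle or link it to glutamate, all 5 had a negative log2 fold change and 1 was called. PC, pyruvate carboxylase, which makes oxaloacetate from pyruvate, had 266, 197.5 and 215 CPM in control and 160.6, 151.9 and 171.3 CPM in silenced libraries. Every silenced library was below every control, and PC fell by 0.49 on the log2 scale, with an interval from -0.72 to -0.26 and an adjusted p of 0.0106. The call of PC was kept without any single library. Control 1 was the highest library. GOT1 and GOT2, the cytosolic and mitochondrial aspartate transaminases, had -0.19 and -0.11, ME2, a malic enzyme, had -0.09, and GLUD1, glutamate dehydrogenase, had -0.02, all with adjusted p above 0.2.

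**Figure D4:**
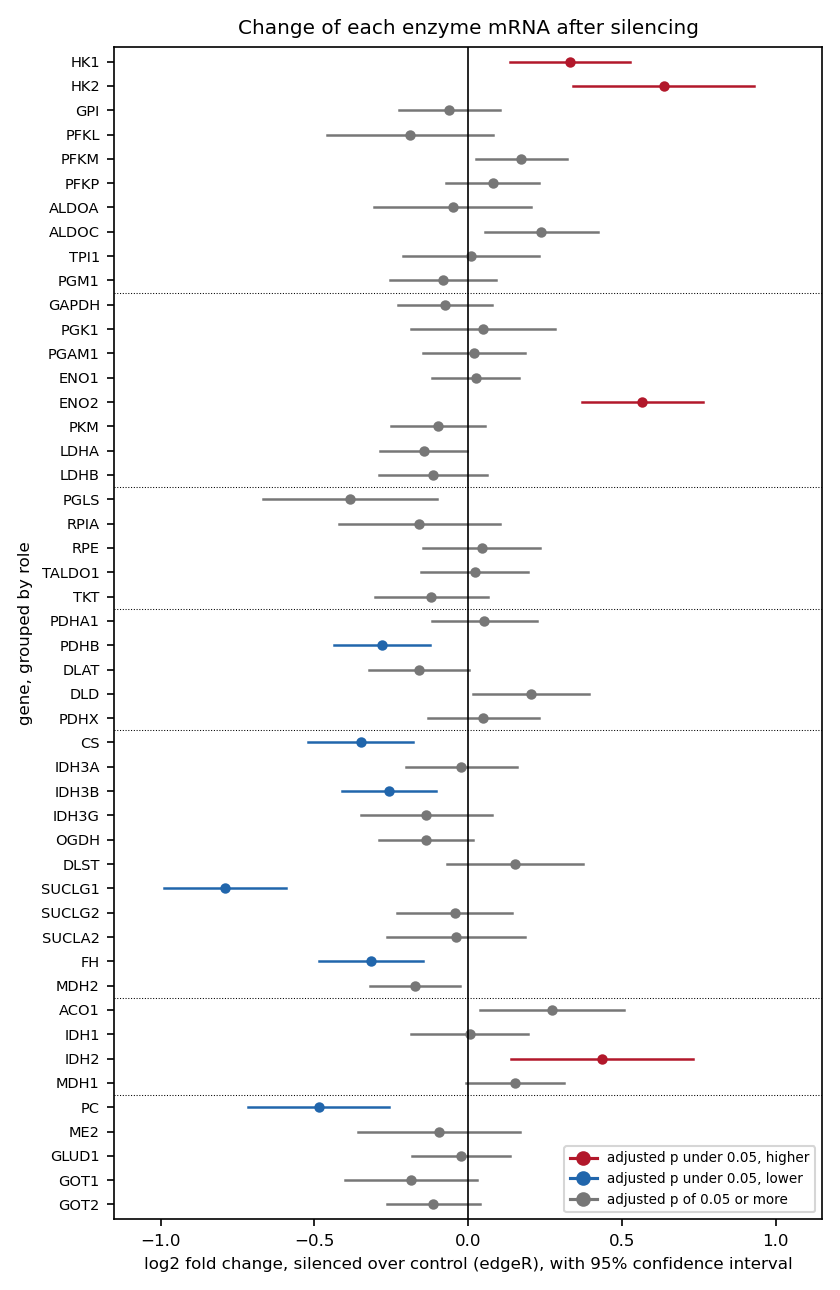
Log2 fold change, silenced over control, of the 48 enzymes with 95% intervals, grouped by role, with called enzymes in red where higher and blue where lower. HK2 at 0.64, ENO2 at 0.57 and SUCLG1 at -0.79 lie farthest from 0, and most intervals cross it.

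**Figure D5:**
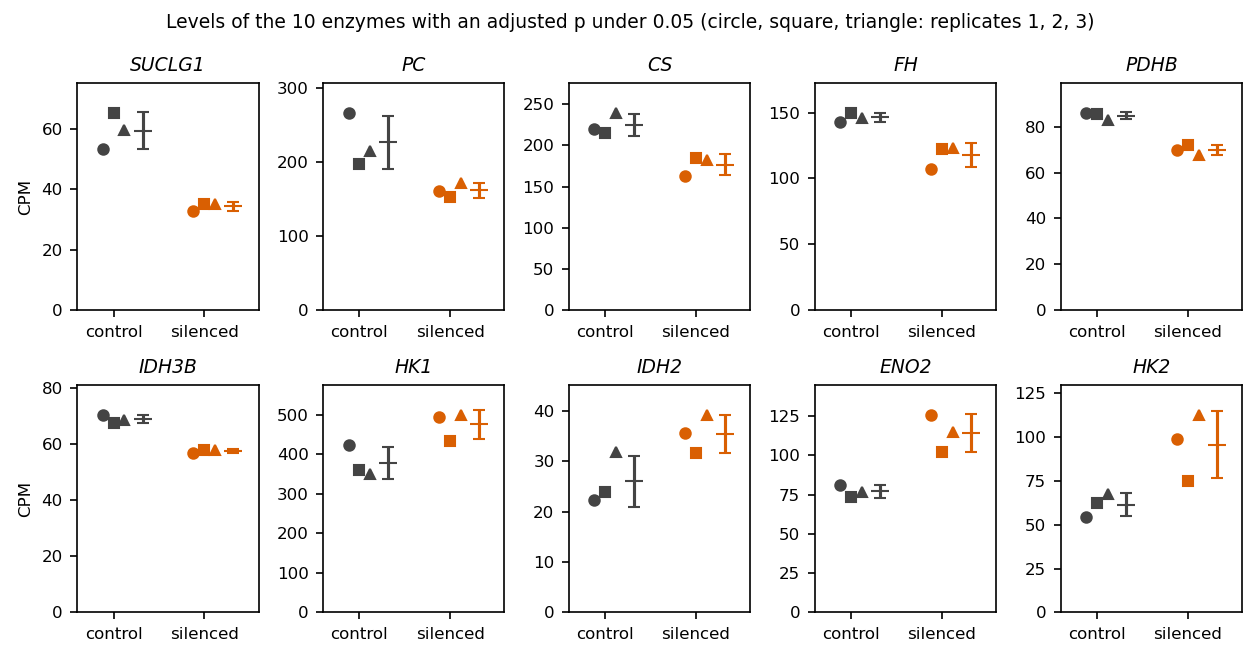
CPM of the 10 called enzymes in the 6 libraries, one panel per enzyme with the vertical axis from 0, points for libraries (circle, square and triangle for replicates 1, 2 and 3) and beside them the group mean with its SD. The groups are apart in 9 of the 10 panels and overlap for IDH2.

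The rest of the pathway was read from a list of 39 other genes, of which 37 passed the filter on low counts. Of these, 4 rose and 3 fell, beside 8.75% and 8.27% of all tested genes, which is near the background. Beside PDK1, PDK3 and PGD, those described here were a glucose transporter, another hexokinase and a subunit of succinate dehydrogenase. SLC2A1, the main glucose transporter of cultured cells, had 261, 232 and 250 CPM in control and 364, 289 and 363 CPM in silenced libraries, with silenced 2 lowest of its group. SLC2A1 rose by 0.45 on the log2 scale (adjusted p = 0.0095, and 0.0517 without silenced 1). HKDC1, a hexokinase-like gene, rose by 0.26 (adjusted p = 0.0266, lost without control 1, control 2, silenced 1 or silenced 3), with 472 to 535 CPM in control and 596 to 624 CPM in silenced libraries. SDHC, a membrane anchor of succinate dehydrogenase, had 65.6, 57.8 and 66.5 CPM in control and 38.5, 39.1 and 43.3 CPM in silenced libraries. All silenced libraries were far below all controls, and SDHC fell by 0.65 (adjusted p = 9.74e-04), while SDHA, SDHB and SDHD had -0.10, -0.03 and -0.08 and were not called. SUCLG1 and SDHC, whose products act at neighbouring steps around succinate, had the lowest log2 fold changes among the TCA enzymes of both lists.

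Levels between genes were compared per kilobase of the longest coding transcript. GAPDH was the most abundant of the 48, at 2869 CPM per kilobase in control, followed by ALDOA, ENO1 and PKM at 1213, 1203 and 1089. The control ranges of ALDOA and ENO1 overlapped. ME2 was the lowest at 3.21 CPM per kilobase. HK1 stood at 94.7 against 10.7 for HK2, and ENO1 at 1203 against 27.3 for ENO2, so that in both pairs the isoenzyme with the larger log2 fold change was the minor one. PFKP, PFKM and PFKL had 228, 101 and 38.5 CPM per kilobase, LDHA and LDHB had 461 and 308, and IDH1 and IDH2 had 29.4 and 9.68.

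The balance between isoenzymes was compared for 10 pairs by the log2 ratio of their counts within a library. With 3 libraries per group, the two-sided exact permutation test cannot go below p = 0.1, and no pair passed after adjustment over the 10 pairs, the lowest adjusted p being 0.25. ENO2 over ENO1 had the largest difference, with a log2 ratio of -5.19 ± 0.0798 in control and -4.66 ± 0.136 in silenced libraries (SD). The ratio was 0.54 higher after silencing and the groups did not overlap. PFKM over PFKL and PFKP over PFKL were 0.37 and 0.28 higher without overlap, and MDH2 over MDH1 was 0.33 lower, from 1.51 ± 0.0812 to 1.18 ± 0.0666. HK2 over HK1, ALDOC over ALDOA and IDH2 over IDH1 were 0.29, 0.30 and 0.45 higher with overlapping groups, and LDHB over LDHA, GOT2 over GOT1 and SUCLA2 over SUCLG2 differed by 0.03, 0.08 and 0.00.

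A word of 7 bases, CCAATAA, had been picked out in the 3′-UTRs of these data before, so that its occurrence here is a description only. It is in an annotated 3′-UTR of 3 of the 48 enzymes (6.25%), against 1471 of 11553 tested genes with such a region (12.7%). The sites are shown with 10 bases on either side, as GENCODE 29 gives the transcripts, because 1 of them is in the enzyme that fell the most.
SUCLG1: acagagacagCCAATAAatctactatt
LDHA: actaaaacccCCAATAAaccttgaaca
DLD: tgatccttaaCCAATAAaacttggctt
The 3 carriers had log2 fold changes of -0.79, -0.14 and 0.20, of which that of SUCLG1 passed the test. None of the 4 enzymes that rose holds the word, and 1 of the 6 that fell does. Among the other pathway genes, 3 of the 4 that rose hold it (SLC2A1, HKDC1 and PDK1), against 0 of the 3 that fell and 4 of the 30 that were not called (SLC2A3, PFKFB3, PCK2 and SDHD).

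Reads shared with copies or with overlapping genes limit some values. Rows whose symbol is that of an enzyme followed by P, with or without a number, exist for 21 of the 48. They were taken as pseudogenes by name alone. Such names can also belong to unrelated genes, most easily where the symbol is short, as for PC. For PC, 2 rows were matched, with 0.461% of its counts. The matched rows came to 37.2% of the counts of TPI1, 36% for SUCLG2, 12.5% for PGK1, 11.3% for LDHA and 10.9% for HK2. Adding them to the enzyme left the same 10 enzymes called. In GENCODE 29, exons of 26 enzymes are overlapped by a gene on the opposite strand, such as LRFN4 for PC, and exons of 6 by a gene on the same strand, and without a stated strand the reads cannot be told apart. SUCLG1, ENO2, FH, IDH2 and IDH3B have no such overlap.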

How the data were processed

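RNA-Seq counts of 6 libraries were analysed, 3 control and 3 silenced. Total RNA was taken 24 h after transfection, libraries followed the Ion Proton protocol, and per the study's methods MapSplice gave the reads mapped to each gene, which the authors tested with DESeq. The deposited values are these raw counts without normalization, for 40173 gene symbols. In 14309 of them no library had a count. The submitters' processing notes name GRCh37. The annotation and the handling of strand and of reads with several matches are not given in the sources used here.

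Genes were filtered with filterByExpr, which left 15250, normalized with TMM and tested with edgeR's quasi-likelihood test (edgeR 4.0.16, limma 3.58.1, R 4.3.3), with Benjamini-Hochberg adjustment over all tested genes. The standard error was derived from the log2 fold change and the square root of F, and intervals cover 95%. CPM values are counts scaled by the TMM-normalized library size. The fit was first tested on simulated data with far fewer changed genes than were called here. At a true absolute log2 fold change of 0.3, edgeR recovered 3 of 68 changed genes. At 0.6 it recovered 58 of 66 and at 1.5 all 66, with 8 false calls among the unchanged genes. Changes near 0.3 or smaller could thus be missed. Library totals of 9738291 to 17742643 counts set the precision of single values. Ratios of isoenzymes were compared by exact permutation tests in the same R version.

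The 48 enzymes, the lists and the tests were chosen with earlier results of these data known. Values of all libraries are given for called enzymes and, whatever their result, for HK2, PFKP, PKM, LDHA, LDHB, TKT, PDHA1, CS and IDH1. From the other pathway genes, called ones were named, at most 10 by p, and from the hypoxia list at most 4 by p. Other genes of these lists named with a log2 fold change were chosen after their values were seen. TIGAR was read under its older symbol C12orf5. Some results of the other pathway genes are not reported here.

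The alternatives were RLE size factors, library size only, other filters, DESeq2 1.42.0 and an adjusted p under 0.01. Further ones were the replicate number as a block, rows matched as pseudogenes by name added, and each library left out. Transcript lengths, 3′-UTRs and overlaps came from GENCODE 29 on GRCh38, a different build from that named by the submitters, and were matched by symbol. Promoter windows are from RefSeq on GRCh38.p14. The tables were joined in Python 3.11.15 with pandas 2.3.3 and numpy 2.4.6, and figures drawn with matplotlib 3.10.9.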

Additional observations from a re-analysis of the deposited data

How the results depend on the processing

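The calls of HK2, ENO2, SUCLG1 and PC held under every alternative normalization, filter and tool and without each library in turn, whereas at an adjusted p under 0.01 the 10 enzymes became 3 (2 higher, 1 lower) and the 2595 genes 903. Leaving out 1 library gave 4 to 9 called enzymes, 2 to 4 of them higher and 2 to 6 lower, among 1225 to 1962 genes, and 200 to 335 genes with a fold over 2. That count was 583 with all genes of at least 1 count and 199 with at least 10 counts in every library, against 326. Scaling by library size alone gave medians of -0.012 for the 48 enzymes and 0.00661 for lower glycolysis and lactate, and lost IDH3B and PDHB.

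Without 1 library, role medians ranged from -0.0769 to -0.0104 for lower glycolysis, -0.184 to -0.0321 for the pentose phosphate pathway, -0.0181 to 0.0826 for pyruvate dehydrogenase, -0.177 to -0.13 for the TCA cycle and -0.189 to -0.0827 for anaplerosis. LDHB over LDHA ranged from -0.00943 to 0.0731 and SUCLA2 over SUCLG2 from -0.131 to 0.154. IDH1 turned to -0.0045 with all genes of at least 1 count, to -0.0011 with DESeq2, and without 1 library lay between -0.0701 and 0.051, and PDHA1 lay between -0.0181 and 0.0887, turning without silenced 2. The cause was not tested.

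Replicates with the same number correlated in their deviations by 0.162, 0.19 and 0.0556, and those with unlike numbers by -0.169 to 0.055. The main fit did not take the numbers as pairs, and these values do not settle whether they are. With the replicate number as a block, 13 enzymes were called, the 10 and also ACO1, MDH2 and PGLS. With 3 libraries per group, fold changes near 1.2 were called for some enzymes and not for others of like size.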
